A study of Mus musculus with 2 samples.

Results

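Interferon-high endothelial cells of the mouse lung were described here as 779 cell barcodes of 13035 endothelial barcodes, 330 of 6878 in a control library and 449 of 6157 in a metastatic library. A barcode was a droplet label with 1000 to 5000 detected genes and under 20% of its unique molecular identifiers (UMIs, the tags that count captured RNA molecules) from mitochondrial genes. It was called endothelial when at least 2 of Pecam1, Cdh5, Cldn5 and Egfl7 were detected and no UMI of the leukocyte gene Ptprc was found. It was called interferon-high when at least 4 of the 7 genes Ifit1, Ifit3, Ifit3b, Rsad2, Ifi44, Usp18 and Oasl1 were detected, so the levels of these 7 genes are a description of the choice and not a result. The other endothelial barcodes, 6548 and 5708, served as the comparison.

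Both libraries came from lungs of wild-type C57BL/6 mice taken 6 h after a tail vein injection, of PBS for the control library and of 200000 cells of B16-F10, a mouse melanoma line, for the metastatic library. Each library pooled the cells of 2 mice, stained with an antibody to Pecam1 and sorted. No sort against Ptprc is described for these libraries. Each group held 1 library, so there was no replicate spread to compare a difference with and no test between the libraries was possible, and every interval below is a 95% interval that covers counting error only. The libraries held 67929614 and 64733724 UMIs, of which the interferon-high cells held 2722796 and 3829377. All 14 endothelial genes listed were found in them, among them Tie1, Kdr, Flt1 and Robo4, with a median of 12 detected per cell in both libraries. Pecam1, Cdh5, Cldn5 and Egfl7 are on this list and were used to call barcodes endothelial, so both values follow in part from the choice.

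Type I interferons are secreted proteins that cells release when they sense viral or misplaced nucleic acid. They bind the Ifnar1 and Ifnar2 receptor chains, and the Jak1 and Tyk2 kinases then start the assembly of a complex with Stat2 and Irf9 that binds interferon-stimulated response elements in promoters and switches on a broad set of antiviral genes. Interferon gamma acts through Ifngr1 and Ifngr2, and is known for the guanylate-binding proteins, the immunity-related GTPases, antigen presentation and the chemokines Cxcl9 and Cxcl10. Endothelium carries both receptors, and small groups of endothelial cells with high interferon-stimulated gene RNA are known from several mouse organs.

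The selecting genes belong to this antiviral set. Ifit1, Ifit3 and Ifit3b encode tetratricopeptide proteins that bind viral RNA or its partners, Rsad2 encodes viperin, which makes a chain-terminating nucleotide, Oasl1 is a relative of the oligoadenylate synthetases, Usp18 removes Isg15 from proteins and dampens the type I receptor, and Ifi44 is an interferon-induced gene. On GRCm38, Ifit3 (chr19:34583531-34588731, + strand), Ifit3b (chr19:34607970-34613401, + strand) and Ifit1 (chr19:34640871-34650009, + strand) are neighbours on chromosome 19. Rsad2 lies at chr12:26442746-26456452 (− strand), Ifi44 at chr3:151730922-151749960 (− strand), Usp18 at chr6:121245906-121270917 (+ strand) and Oasl1 at chr5:114923240-114937915 (+ strand). Ifit3 and Ifit3b are near-identical copies, with 98.0% identity over 1697 aligned transcript bases, so reads may have been split between them or lost, and the pair counts as 2 of the 7 genes.

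The promoters of the selecting genes are shown because 4 of the 6 that matched RefSeq promoters held the core of the interferon-stimulated response element, here searched on either strand as GAAA, any 2 bases and again GAAA. The stretches below are RefSeq sequence of GRCm38.p6, from the 250 bases upstream of the start, 5′ to 3′ on the strand of the gene. Capitals mark the matches, which read TTTC, any 2 bases and TTTC where they lie on the opposite strand. The 2 matches of Ifit3 and Ifit3b sit in the same 68 bases, identical at 68 of 68 positions.
Ifit1 (chr19:34640773-34640825, + strand): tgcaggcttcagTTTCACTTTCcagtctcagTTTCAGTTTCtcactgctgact
Ifit3 (chr19:34583361-34583428, + strand): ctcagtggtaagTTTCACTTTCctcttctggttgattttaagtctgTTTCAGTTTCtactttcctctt
Ifit3b (chr19:34607757-34607824, + strand): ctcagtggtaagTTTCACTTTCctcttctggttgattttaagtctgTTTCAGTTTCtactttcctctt
Rsad2 (chr12:26456551-26456584, − strand): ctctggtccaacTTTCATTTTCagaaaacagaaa

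The first match began 104 bases before the start of Ifit1, 156 before that of Ifit3, 188 before that of Ifit3b and 120 before that of Rsad2. These letters were not in the windows of Ifi44 and Oasl1, and Usp18 had no entry among the promoters. Of all 32851 RefSeq promoters, 978 (2.98%) held the match. A match is a description of the sequence, not of binding.

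In the interferon-high cells the selecting genes had the following levels, in CPM (UMIs of the gene per 1e6 UMIs, summed over the cells). Ifit1 had 646 CPM in control interferon-high cells and 528 CPM in metastatic ones, against 40.3 and 42.3 CPM in the other endothelial barcodes, and it was detected in 95.8% and 93.5% of the interferon-high cells against 13.7% and 15.7% of the others. Ifit3 stood at 456 and 449 CPM against 25.2 and 31.1 CPM. Ifit1 and Ifit3 were thus the most often detected of the 7 genes.

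Ifi44 was detected in 68.2% and 74.4% of the interferon-high cells, Usp18 in 73.9% and 75.9%, Ifit3b in 70.9% and 71.5% and Rsad2 in 52.4% and 53.2%. Oasl1 was the least often detected, in 21.5% and 19.4%, against 0.962% and 0.788% of the others. Many interferon-high cells were at the threshold: 49.7% of the control and 45.9% of the metastatic ones had exactly 4 of the genes, and 12 and 21 cells had all 7. Cells with 3 genes, just outside, had a median of 5 UMIs of the 7 genes in the control and 4 in the metastatic library, and cells with 4 genes, just inside, had 8 in both.

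**Figure D1:**
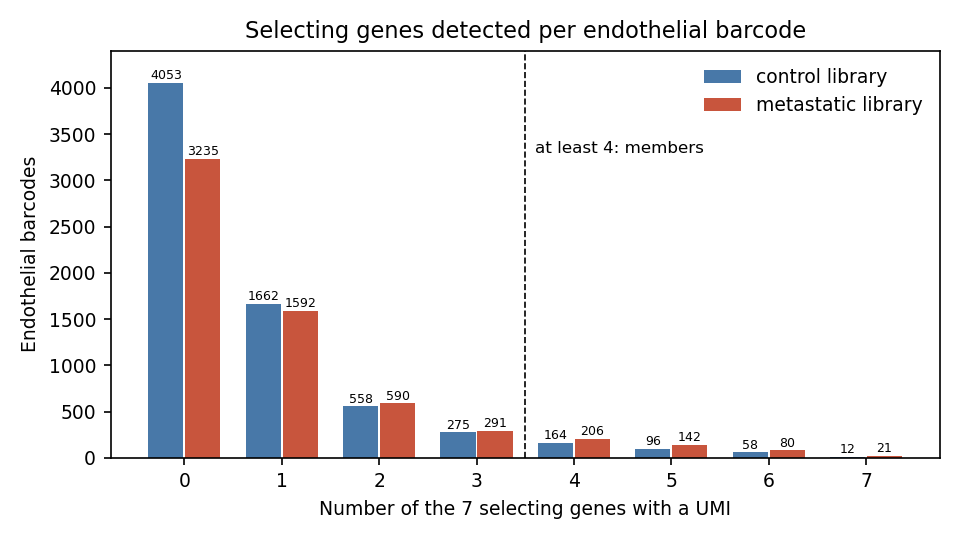
Number of endothelial barcodes (y axis) by how many of the 7 selecting genes were detected (x axis, 0 to 7), for the control and the metastatic library. The counts fell without a further peak, from 4053 and 3235 barcodes with 0 genes to 164 and 206 with 4 and 12 and 21 with 7.

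The number of barcodes fell at every step from 0 to 7 genes in both libraries, with 275 and 291 at 3 genes and 164 and 206 at 4. Over the cells, UMIs of the 7 genes ran from 4 to a median of 11 and a highest value of 98 in the control library, and from 4 to a median of 11 and a highest value of 76 in the metastatic library.

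Interferon genes that the choice did not use rose along the same scale. A list of 47 antiviral effectors outside the 7 genes summed to 5565 CPM in control barcodes with 0 selecting genes, 8499 CPM with 3, 10276 CPM with 4 and 12636 CPM with 6. In the metastatic library the same sums were 6270, 8939, 10632 and 13022 CPM. The sum rose at every step from 0 to 7 genes in both libraries.

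Isg15, a ubiquitin-like protein that is attached to other proteins after interferon, went from 48.3 CPM with 0 genes to 269 with 3, 470 with 4 and 1420 with 7 in the control library, and from 67.8 to 277, 509 and 1547 in the metastatic library. The class I antigen presentation genes rose less, from 7966 to 9987 CPM and from 8980 to 12833 CPM. Interferon receptors and their kinases went from 831 to 1011 CPM and from 978 to 1183 CPM. The 7-gene end rests on 12 control and 21 metastatic cells.

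**Figure D2:**
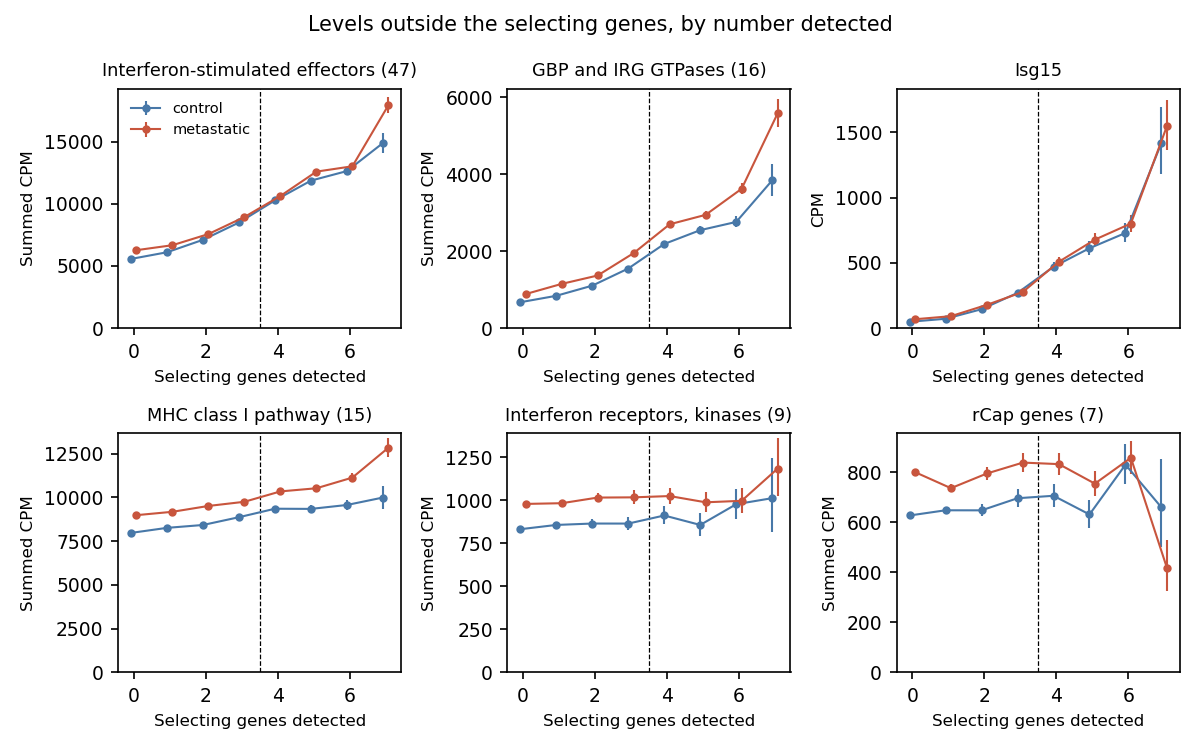
Summed CPM (y axes, with 95% Poisson intervals) of 6 gene groups against the number of selecting genes detected (x axes) in each library. Effectors, GTPases and Isg15 climb at every step in both libraries, while the reactive capillary genes run from 627 to 659 CPM in the control and from 800 to 418 CPM in the metastatic library between 0 and 7 genes.

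The share of interferon-high cells among endothelial barcodes was 4.80% (4.30–5.33) in the control and 7.29% (6.66–7.97) in the metastatic library, a difference of 2.49 percentage points. The share depends on depth. Over 4 bins of rising UMI count it rose from 1.99% to 7.69% in the control and from 3.07% to 11.2% in the metastatic library, and the interferon-high cells had medians of 7363.5 and 7538 UMIs against 6234 and 6433.5 in the others. After each barcode was thinned to 2000 UMIs, at least 4 genes were found in 1.02% (0.793–1.29; 69 of 6774) and 1.65% (1.35–2.01; 100 of 6054), with 104 and 103 barcodes too shallow. The metastatic share was the higher before and after thinning.

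Background and other cells were measured beside the share. In leukocyte barcodes, which held Ptprc and fewer than 2 endothelial genes, at least 4 of the 7 genes were found in 0 of 95 control barcodes and 0 of 102 metastatic ones, at medians of 5284 and 5990.5 UMIs, which allows shares of up to 3.16% and 2.94%. In barcodes with Ptprc and at least 2 endothelial genes, which were left out, they were found in 7 of 117 (5.98%) and 8 of 162 (4.94%). Barcodes with 11 to 50 UMIs, taken as free RNA, held the 7 genes at 437 (388–491) and 446 (399–497) CPM, above the 222 and 275 CPM of all endothelial barcodes. The effector list stood at 6251 and 6097 CPM there, against 6315 and 7182 CPM in endothelial barcodes. The part of free RNA in the interferon-high cells was not tested. High doublet scores were more common among interferon-high cells, at 38 (11.5%) and 62 (13.8%), than among the others, at 5.35% and 4.26%, and without high-scoring barcodes the metastatic share was 6.61%.

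The libraries shared 16 called barcode sequences, of which 14 were endothelial, and no sequence was interferon-high in both. The mitochondrial share of UMIs was alike, with medians of 2.73% and 2.64% in interferon-high cells and 2.71% and 2.72% in the others. Markers of other cell types were lower in interferon-high cells, except fibroblast markers in the control library, which summed to 34.9 CPM against 22.4 CPM (20.9 against 27.1 CPM in the metastatic library), and melanoma markers in the metastatic library, at 7.31 against 7.07 CPM (2.94 against 5.10 CPM in the control). Platelet markers summed to 69.4 CPM (control) and 244 CPM (metastatic), against 196 and 296 CPM in the others. Globin and other erythroid markers summed to 390 and 331 CPM against 1993 and 1062, epithelial markers to 145 and 93.0 CPM against 1628 and 1590, and myeloid markers to 103 and 121 CPM against 275 in both libraries. Lymphoid markers summed to 1.47 and 3.39 CPM, and Cd3e, Siglech, Csf3r, Cdh1 and Tyr had no UMI in the interferon-high cells of either library.

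Compared with the other endothelial barcodes of the same library, interferon-high cells had higher levels of nearly the whole antiviral programme. Of 12710 genes with at least 20 UMIs in the comparison in each library, a ratio of at least 2-fold higher was found for 2.58% in the control and 1.54% in the metastatic library, and for 0.692% (88 genes) in both. Of the 47 effectors listed, 42 passed the minimum, 25 of these were at least 2-fold higher in both libraries, and all 42 had ratios above 0 in both, as did 23% of all genes. Their median log2 ratio was 1.39 in the control and 1.19 in the metastatic library, against −0.03 and −0.04 over all genes. The cells were chosen on genes of the same response, so these ratios describe the chosen cells, with no test.

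Isg15 stood at 591 CPM in control and 664 CPM in metastatic interferon-high cells and at 74.8 and 101 CPM in the others. Its log2 ratio of 2.98 (2.90–3.07) in the control and 2.72 (2.65–2.79) in the metastatic library was past 2-fold in both. Its promoter is shown because it held 3 overlapping matches to this element, the first beginning 78 bases before the start.
Isg15 (chr4:156200863-156200908, − strand): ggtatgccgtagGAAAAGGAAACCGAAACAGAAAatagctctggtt

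Oasl2, which is related to Oasl1, stood at 317 and 320 CPM against 59.1 and 67.8 CPM, a log2 ratio of 2.42 and 2.24. Cmpk2, a mitochondrial nucleotide kinase encoded beside Rsad2, stood at 151 and 144 CPM against 26.4 and 31.5 CPM. Ifit2, a further tetratricopeptide gene, had ratios of 2.44 and 2.28. Zbp1, a sensor of Z-form nucleic acid that can start necroptosis, had 2.99 (2.60–3.37) and 2.05 (1.76–2.33).

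Ratios in the effector list were graded. Rtp4, Eif2ak2 (the kinase that halts translation on double-stranded RNA) and Parp14 had log2 ratios of 2.01 and 1.90, 1.84 and 1.61, and 1.62 and 1.32. The membrane proteins that restrict virus entry and release moved less: Ifitm3 had 0.73 and 0.60 and Bst2 0.53 and 0.64. Ly6e had 0.32 and 0.33, and Uba7, the enzyme that activates Isg15, had 0.25 and 0.02. Ifi27l2a had 0.27 in the control and 1.16 in the metastatic library. Of its 24 control UMIs, 8 lay in 1 cell. Without the cell with the most in each library its ratios were −0.31 (−1.13–0.41) and 0.97 (0.56–1.36).

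Among the genes with the highest ratios in both libraries, several stood outside the effector list. These were ranked over genes with at least 20 UMIs in the interferon-high cells of each library. Apol9b had log2 ratios of 2.96 and 3.01 and its copy Apol9a 2.57 and 2.79, and reads may have been split between these paralogs. Ifi206 had 2.74 and 2.37, Slfn9 2.25 and 2.19, Slfn3 1.94 and 1.94, Phf11b 1.82 and 2.1 and Gm4951 2.03 and 1.77. The promoters of the 25 highest genes, of which 19 had RefSeq entries with 22 promoters, held the match in 13 cases (59.1%). No match was found for Irf7, Ifit2, Oasl2, Cmpk2 and Cxcl9, which were among these genes.

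The transcription factors divided by role. The factors of the interferon-stimulated complex were higher: Stat2 had log2 ratios of 1.47 and 1.33, and Irf9 1.24 and 1.06. Irf7, which amplifies type I interferon production, stood at 75.3 and 78.6 CPM against 11.8 and 14.3 CPM, a ratio of 2.68 (2.44–2.91) and 2.46 (2.26–2.67). Irf1 had 0.36 and 0.46, and Irf3 and Irf2, which are present before any interferon, had 0.09 and −0.12, and 0.12 and 0.08.

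The cytoplasmic RNA sensors were higher too. Ifih1 (Mda5) stood at 123 and 130 CPM against 50.4 and 56.9 CPM, Ddx58 (Rig-I) at 134 and 136 against 50.2 and 59.9, and Dhx58 (Lgp2) had log2 ratios of 1.83 and 1.73. The DNA sensor Mb21d1 (cGAS) had 0.48 and 0.49, the endosomal RNA sensor Tlr3 0.19 and 0.28, the adaptor Myd88 0.51 and 0.49 and the adaptor Mavs 0.02 in both. The 3 RNA helicases were the sensors past 2-fold in both libraries, among 8 listed, against 0.692% of all genes that were higher.

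Receptors and kinases were close to the other endothelial barcodes. Ifnar1 stood at 65.0 and 69.7 CPM against 62.0 and 68.0 CPM, a log2 ratio of 0.07 (−0.16–0.29) in the control and 0.04 in the metastatic library. Ifnar2 had 0.13 and 0.09, Ifngr1 0.15 and 0.12, Ifngr2 0.05 and −0.05, and Jak1 0.17 and 0.00. Of 9 receptor and kinase genes 8 passed the minimum, and none was past 2-fold in either library. Of all genes, only 2.58% and 1.54% were at least 2-fold higher and 6.4% and 5.5% at least 2-fold lower. A count of none among 8 therefore differs little from the share over all genes. Ifnlr1, the type III receptor chain, had 0 UMIs in these cells. The inhibitor Socs1 stood at 36.7 and 49.4 CPM against 24.4 and 28.7 CPM, with ratios of 0.59 (0.28–0.88) and 0.78 (0.55–1.01), and Socs3 had 0.18 and 0.29.

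Interferon RNA itself was hardly captured. No UMI of any Ifna gene was found in either library. Ifnb1 had 2 control and 4 metastatic UMIs over all barcodes, called or not, and 0 in called barcodes. Ifng had 16 and 30 UMIs, of which 10 and 13 lay in called barcodes, all of them with Ptprc and none endothelial. The interferon-high cells held no UMI of the 21 ligand genes.

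The guanylate-binding proteins and immunity-related GTPases, which attack the vacuoles of intracellular pathogens, formed the most uniform group. Of 16 listed, 15 passed the minimum, and 13 of these were at least 2-fold higher in both libraries, as were 0.692% of all genes. Their medians were 1.64 and 1.55. Their sum was 2453 CPM in control and 3084 CPM in metastatic interferon-high cells, against 802 and 1086 CPM in the others. Members of this family are close copies, and reads may have been split between them.

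Iigp1, which coats pathogen vacuoles, stood at 617 and 763 CPM against 199 and 228 CPM, with log2 ratios of 1.64 (1.56–1.71) and 1.74 (1.68–1.80). Gbp5 stood at 76.4 and 100 CPM against 17.4 and 30.2 CPM, and Gbp2 at 171 and 269 CPM against 56.0 and 99.5 CPM. Gbp9, at 0.90 and 0.84, and Gbp8, at 0.57 and 1.04, were the members not past 2-fold in both. Promoters of this group matched the element most often, 10 of 12 (83.3%). The stretches of 4 members are shown as examples of the match close to the start.
Gbp2 (chr3:142620592-142620625, + strand): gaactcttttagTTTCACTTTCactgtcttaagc
Gbp3 (chr3:142559987-142560026, + strand): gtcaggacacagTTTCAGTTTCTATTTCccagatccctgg
Igtp (chr11:58199510-58199543, + strand): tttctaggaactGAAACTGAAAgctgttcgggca
Irgm1 (chr11:48871423-48871462, − strand): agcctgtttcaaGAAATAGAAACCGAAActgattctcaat

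The first match began 59 bases before the start of Gbp2, 45 before that of Gbp3, 34 before that of Igtp and 30 before that of Irgm1. In Gbp3 and Irgm1 a pair of matches overlapped. Another promoter of Gbp3 held no match. The log2 ratios of these genes were 1.61 and 1.43 for Gbp2, 1.81 and 1.55 for Gbp3, 1.71 and 1.65 for Igtp and 1.66 and 1.58 for Irgm1. The effector list held the match in 13 of 47 promoters (27.7%).

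Antigen presentation genes were higher by less. Of 15 class I genes, 14 had ratios above 0 in both libraries, as did 23% of all genes. None was past 2-fold in both (0.692% of all genes were higher and 1.84% lower), and the medians were 0.32 and 0.36. Tap1, the peptide transporter, stood at 149 and 177 CPM against 74.2 and 93.3 CPM, with ratios of 1.00 and 0.92, and Nlrc5, the class I transactivator, had 0.73 and 1.06. The immunoproteasome subunits Psmb8 and Psmb9 had 0.73 and 0.66, and 0.66 and 0.58. The presenting molecules moved least, with H2-K1 at 0.20 and 0.18, B2m at 0.15 in both and H2-D1 at 0.06 and 0.07.

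The 7 class II genes all had ratios above 0 in both libraries, as did 23% of all genes, with medians of 0.31 and 0.29. H2-Ab1 had 0.32 and 0.39, Cd74 0.21 and 0.16, and their transactivator Ciita 0.23 and 0.64. Cd274, the checkpoint ligand PD-L1, stood at 23.9 and 44.9 CPM against 12.2 and 16.8 CPM, with ratios of 0.97 (0.58–1.35) and 1.42 (1.17–1.66).

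**Figure D3:**
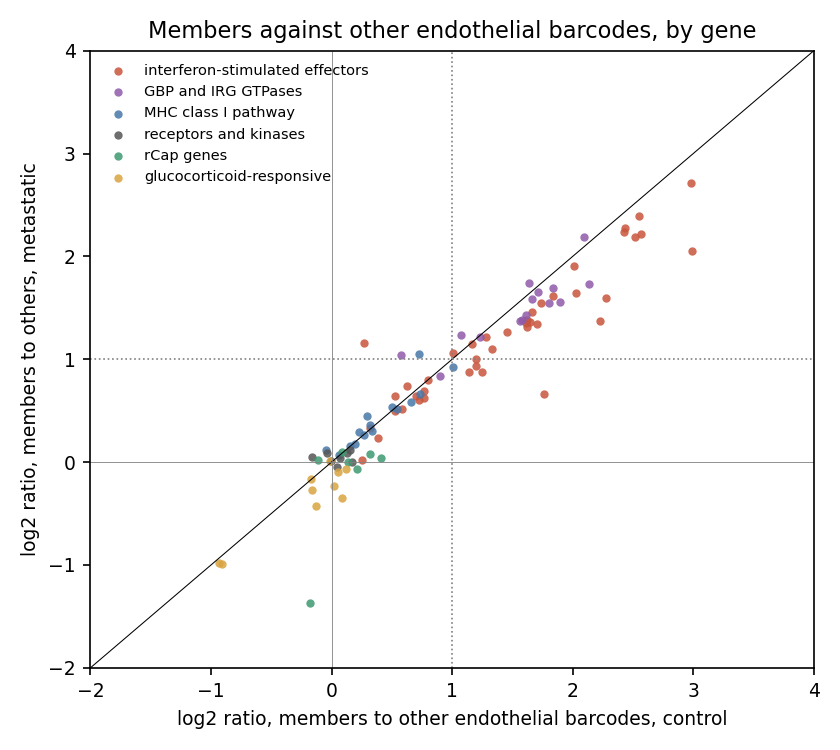
Log2 ratio of interferon-high cells (members in the axis titles) to other endothelial barcodes per gene, in the control (x axis) and the metastatic library (y axis), coloured by gene list, with dotted lines at 2-fold. GTPases and effectors fill the upper right corner (medians 1.64 and 1.55, and 1.39 and 1.19), and class I genes, receptors and reactive capillary genes lie nearer to 0, apart from Inhbb at −0.18 and −1.37.

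Other endothelial programmes differed little between interferon-high cells and the rest. The reactive capillary genes (Pim3, Bcl3, Inhbb, Osmr, Tmem252, Adamts9 and Scarb1, a list that the study drew from its own data, these libraries among them, and so no independent evidence) had medians of 0.13 and 0.02, with none of 7 past 2-fold in both. Of all genes, 0.692% were at least 2-fold higher and 1.84% at least 2-fold lower in both. NF-kB targets had 0.04 and −0.03, adhesion molecules −0.08 and −0.11, immediate early genes 0.10 and 0.21 and heat shock genes −0.08 and 0.04. Vcam1 and Icam1, which hold leukocytes, had ratios of −0.08 and −0.03, and 0.04 and 0.01. For Vcam1, 31 of 132 control and 51 of 252 metastatic UMIs lay in 1 cell each. Without these cells its ratios were −0.46 (−0.77 to −0.18) and −0.35 (−0.56 to −0.14). The chemokines Cxcl16, Cx3cl1 and Cxcl12 had 0.06 and −0.38, 0.39 and −0.10, and −0.23 and −0.35.

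At the low end, a ratio of at least 2-fold lower in both libraries was found for 1.84% of all genes (6.4% in the control and 5.5% in the metastatic library), and this count leaned on genes with few UMIs in the interferon-high cells. Among genes with at least 20 UMIs in the interferon-high cells of each library, the lowest ratios belonged to markers of other cell types. Sftpc, surfactant protein C of alveolar epithelium, had −3.97 and −4.64, Sftpa1 −3.78 and −4.44, the myeloid lysozyme Lyz2 −2.89 and −2.42 and Hbb-bs, a beta globin, −2.39 and −1.69. Outside the marker lists, Adamtsl5 had −1.41 and −1.42. In gCap-like clusters alone some of these turned, with 0.066 for Adamtsl5 and 0.033 for Lyz2 in the control and 0.41 for Hbb-bs in the metastatic library.

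Aerocyte markers were lower as well, with 0 of 8 above 0 in either library and medians of −1.34 and −0.78. Of 12710 genes, 5691 and 5313 were above 0. General capillary markers had medians of 0.19 and 0.15 and vein markers 0.36 and 0.42. Slc6a2, a noradrenaline transporter used as a vein marker, had 0.87 and 0.72.

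The highest ratio in each library among the named genes, that of Cxcl9, rested on 1 cell. Cxcl9 is a chemokine that draws T cells through Cxcr3 and is known as a target of interferon gamma. In the control library 93 of 93 of its UMIs in interferon-high cells, and in the metastatic library 228 of 229, lay in 1 cell each. It was detected in 1 and 2 interferon-high cells and in 10 and 13 other endothelial barcodes, none of which had more than 12 and 2 UMIs. The log2 ratios of 5.51 and 7.39 over all interferon-high cells therefore describe 2 cells, and without them Cxcl9 had 0 UMIs in the control and −0.44 (−5.85–2.27) in the metastatic library.

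The control cell with the most Cxcl9 also held 192 of the 219 Cxcl10 UMIs of the control interferon-high cells. It had 8141 UMIs, 2860 genes, 4 of the 7 selecting genes and 10 endothelial genes. It held 195 UMIs of the GTPase group, the most of 6878 control endothelial barcodes, where the median interferon-high cell held 17. The metastatic cell had 6310 UMIs, 2277 genes, 4 of the selecting genes and 7 endothelial genes, and held 35 of 283 Cxcl10 UMIs and 130 GTPase UMIs, rank 6 of 6157, against a median of 21. Neither cell had a high doublet score or any UMI of the lymphoid and myeloid markers, and both lay in cluster 16. Cxcl9 was among the 10 leading genes of that cluster and was not left out of the clustering, so this placement is not independent of Cxcl9.

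Cxcl10 was spread over more cells in the metastatic library. It was detected in 8 control and 38 metastatic interferon-high cells. Its level was 80.4 and 73.9 CPM against 6.81 and 26.1 CPM in the others, a log2 ratio of 3.56 (3.30–3.82) and 1.5 (1.31–1.70). Without the cell with the most Cxcl10 in each library the ratios were 0.55 (−0.08–1.12) and 1.32 (1.11–1.52). The promoter of Cxcl10 held the match once, 213 bases before the start, and is shown for comparison with the selecting genes.
Cxcl10 (chr5:92349081-92349114, − strand): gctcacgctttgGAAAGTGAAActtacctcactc

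The vessel classes of the interferon-high cells were taken from clusters made without certain gene lists. Left out were the selecting genes, the effectors, the GTPases and the interferon ligands, receptors, sensors, inhibitors and transcription factors. The reactive capillary, heat shock and immediate early lists were left out as well. Chemokines, antigen presentation genes and interferon genes on no list were not left out. Names end in "-like", because they rest on RNA markers. General capillary-like (gCap-like) clusters held 261 (79.1%) of the control and 332 (73.9%) of the metastatic interferon-high cells. When all genes were allowed into the clustering, a single cluster of 426 control and 322 metastatic barcodes held 222 and 231 of the interferon-high cells. Of the clusters made without these lists, 1, 2, 3 and 9 were mostly of the control library and 4, 13 and 16 mostly of the metastatic library. For this reason gCap-like cells were not compared between the libraries as a class. The name rests on how many cells of a cluster had gCap markers, a mean share of 0.64 in cluster 7 and 0.63 in cluster 16, and in both of these the marker levels were below those of the remaining barcodes, with log2 scores of −0.61 and −0.73. Cluster 2 had the artery gene Efnb2 and the gCap marker Lpl among its 10 leading genes.

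By gCap-like cluster, the share of interferon-high cells was 5.38% (control) and 6.41% (metastatic) in cluster 1, 6.51% and 4.82% in cluster 2, and 5.49% and 6.34% in cluster 3. In cluster 4, whose leading genes included the artery marker Gja4, the share was 8.51% (8 of 94) in the control and 9.69% (8.54–10.9; 234 of 2416) in the metastatic library. This cluster thus held 234 of the 449 metastatic interferon-high cells. The smaller clusters 5, 7 and 16 had 2 of 58 and 3 of 52, 6 of 109 and 1 of 55 (5.50% and 1.82%), and 1 of 8 and 8 of 189 interferon-high cells in the control and the metastatic library.

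Without thinning, vein-like cells had the highest shares of the vessel classes, at 8.46% (5.65–12.1; 27 of 319) and 11.4% (8.20–15.3; 38 of 333). Artery-like cells had 5.79% (11 of 190) and 6.48% (7 of 108). Lymphatic-like cells, of which there were few, had 2 of 37 and 1 of 47 (2.13%). At a clustering resolution of 1.5 the lymphatic-like cluster held only 32 barcodes, with 1 control and 0 metastatic interferon-high cells. A cluster of 52 barcodes led by Fabp4, Rbp7 and Timp4, which also lead the class used here, stayed without a name and held 1 and 1. The class may therefore hold other cells. Aerocyte-like (aCap-like) cells, the thin capillary cells of gas exchange, had the lowest share of the blood vessel classes, at 1.33% (0.709–2.26; 13 of 979) in the control and 4.13% (2.82–5.81; 31 of 751) in the metastatic library, at medians of 8157 and 8536 UMIs. The intervals of aCap-like and vein-like cells did not overlap in either library, while those of vein-like and artery-like cells did. At 2000 UMIs each, at least 2 of the 7 genes were found in 1.33% and 2.95% of aCap-like cells and in 7.94% and 13.7% of vein-like cells. The same held for 8.05% and 8.94% of gCap-like cells, so vein-like cells were not the highest class in the control library at this depth. Most aCap-like cells were in cluster 9 in the control and cluster 13 in the metastatic library, and within cluster 9 the shares were 1.16% (11 of 945) and 2.30% (7 of 305), and within cluster 13 they were 5.88% (2 of 34) and 5.38% (24 of 446).

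Some clusters carried endothelial genes and markers of another cell type. Those with platelet markers had shares of 3.15% (1.37–6.11; 8 of 254) and 9.12% (6.36–12.6; 33 of 362), and clusters with fibroblast markers 4.88% and 5.17%. Of the barcodes with erythroid markers, 0 of 347 control ones were interferon-high, which allows a share of up to 0.865%, and 1 of 311 metastatic ones. Their medians of 2451 and 2425 UMIs were the shallowest of these clusters.

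The effectors were higher in the interferon-high cells of every named class. The log2 ratio of the summed effectors was 0.92 in the control and 0.84 in the metastatic library in gCap-like cells, 0.69 and 0.61 in aCap-like, 0.71 and 0.73 in vein-like and 0.71 and 0.69 in artery-like cells. For the GTPases it was 1.5 and 1.46 in gCap-like, 1.84 and 1.49 in aCap-like and 1.08 and 1.16 in vein-like cells.

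**Figure D4:**
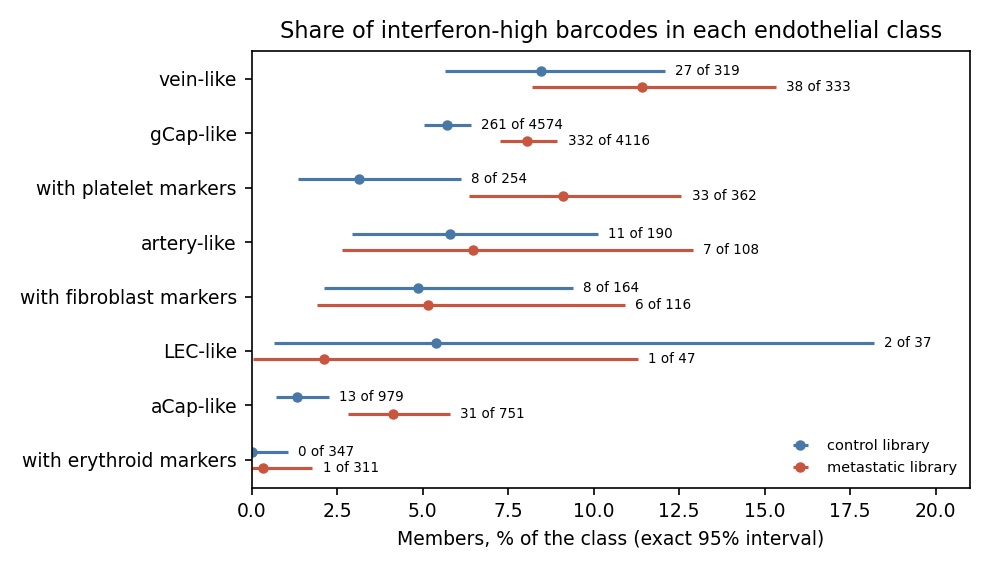
Percentage of barcodes that were interferon-high (x axis, with 95% Clopper-Pearson intervals) in each vessel class and in clusters with markers of another cell type (y axis), for both libraries. The aCap-like class is lowest among the blood vessel classes, at 1.33% and 4.13% (the lymphatic-like class of 47 metastatic barcodes has 2.13%). At this unthinned depth the vein-like class is highest, at 8.46% and 11.4%.

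The comparison of the metastatic with the control library asked how the interferon-high cells of lungs that had received melanoma cells differed from those of vehicle-injected lungs. Of 8760 genes with at least 50 UMIs in interferon-high cells, 0.776% were at least 2-fold higher and 0.559% at least 2-fold lower in the metastatic library, and 54.4% had ratios above 0. In the other endothelial barcodes the same genes gave 0.308%, 0.0457% and 55.1%. The interferon-high cells hold far fewer UMIs, so these shares are not comparable in precision.

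The effectors differed little between the libraries inside the interferon-high cells. Their median log2 ratio of metastatic to control was 0.04 in interferon-high cells, with 25 of 41 genes above 0, and 0.25 in the others, with 33 of 41 above 0. Over all genes, 54.4% and 55.1% were above 0. Isg15 had 0.17 in interferon-high cells and 0.43 in the others. Of the selecting genes, Ifit1 fell by 0.29 on the log2 scale (−0.39 to −0.20) in interferon-high cells, where the requirement of 4 genes acts in both libraries.

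GTPases and antigen presentation genes were higher in the metastatic library in both sets of cells. The GTPases had a median of 0.39 in interferon-high cells and 0.46 in the others, with 15 of 15 genes above 0 in each (54.4% and 55.1% of all genes). Gbp4 reached 0.97 in the interferon-high cells. Class I genes had 0.30 in both sets, with 14 of 15 above 0 in interferon-high cells. Class II genes had 0.74 and 0.64, with 7 of 7 above 0 and 2 past 2-fold in interferon-high cells, Ciita at 1.59 and Cd74 at 1.07 (0.91–1.22). Of all genes, 0.776% were at least 2-fold higher in interferon-high cells. Cd274 had 0.91 (0.49–1.35) and 0.47.

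The glucocorticoid-responsive genes were lower in the metastatic library, with a median of −1.09 in interferon-high cells and −0.82 in the others. In interferon-high cells 5 of the 9 tested were past 2-fold lower, against 0.559% of all genes. Zbtb16, a zinc finger repressor that glucocorticoids induce, stood at 475 CPM in control and 146 CPM in metastatic interferon-high cells, a log2 ratio of −1.70 (−1.85 to −1.56), and at −1.26 in the others. Fkbp5, which holds the glucocorticoid receptor inactive, had −1.09, and the clock gene Per1 −1.15. Mt1, a metallothionein on the same list, had the opposite sign, at 1.27, but 88 of its 142 metastatic UMIs lay in 1 cell, and without the cell with the most in each library the ratio was 0.35 (−0.32–1.05).

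Reactive capillary genes were higher in the metastatic library in both sets, with medians of 0.18 in interferon-high cells (6 of 7 above 0) and 0.38 in the others (7 of 7). Of all genes, 54.4% and 55.1% were above 0. Inhbb, the beta B subunit of activin, stood at 4.04 CPM in control and 11.8 CPM in metastatic interferon-high cells, against 4.58 and 30.4 CPM in the others. Its ratio of interferon-high cells to others was −0.18 (−1.21–0.69) in the control and −1.37 (−1.83 to −0.94) in the metastatic library. Inhbb was detected in 10 of 330 control (3.03%; 1.46–5.50) and 19 of 449 metastatic interferon-high cells (4.23%; 2.57–6.53), against 1.92% and 6.89% (6.24–7.57) of the others. Bcl3, a nuclear IkB protein, stood at 16.5 and 41.0 CPM against 15.1 and 40.9 CPM.

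Among single genes, the highest metastatic to control ratios in interferon-high cells included the platelet genes Ppbp (2.55, with 0.49 in the others), Alox12 (2.47), Treml1 (2.12) and Itga2b (1.83). Platelet markers as a list had a median of 1.68 in interferon-high cells and 0.58 in the others, and the part of platelet RNA in other results was not tested. Tiam1, an activator of Rac, had 1.96 and 1.90, and Arl4c 1.89 and 1.31. Of the 10 highest genes, 2 (Mfap4 and Inmt) had over 50% of their UMIs in 1 cell, the same metastatic cell, which had 43 UMIs of fibroblast markers and a high doublet score.

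Of the 10 lowest genes, 3 had over 50% of the UMIs of a library in 1 cell. Ccl21a, the lymphatic chemokine, had 86 of its 86 control UMIs in 1 lymphatic-like cell, Rbp7 72 of 91 in 1 cell and Spp1 67 of 124 in 1 cell of a cluster with fibroblast markers. Without the cell with the most in each library, Ccl21a had 0 UMIs left in both. The ratio was then −3.15 (−5.55 to −1.39) for Rbp7 and −2.33 (−3.23 to −1.51) for Spp1. Cxcl10 turned with its highest cell: its metastatic to control ratio in interferon-high cells was −0.12 (−0.38–0.14) over all of them and 2.71 (2.13–3.34) without the cell with the most in each library, against 1.94 in the others.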

How the data were processed

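The deposited files hold raw UMI counts per gene and barcode. The authors made them with Cell Ranger on mm10 (version 3.1.0 per the file headers, while the study's methods give an earlier version), before cell calling, and kept no normalization. From these counts, barcodes were called and chosen as stated in the report with Python 3.11.15, numpy 2.4.6, pandas 2.3.3 and scipy 1.17.1. The selection, the gene lists and the comparisons were chosen with earlier results of these data known. UMIs were summed over cells and given as CPM with exact Poisson intervals, log2 ratios with conditional binomial intervals that are exact and shares with Clopper-Pearson intervals. A ratio was counted when it was past 2-fold. With 1 library per group no p-value was computed. Ratios required at least 20 UMIs in the members of each library together with the others, or 50 UMIs over the members for metastatic against control.

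Genes named are those of the fixed lists, the 25 highest and 10 lowest ratios of members to others (smaller and larger of both libraries), the 10 highest and 10 lowest metastatic to control ratios and the 5 highest and 5 lowest differences between them in members and others (at least 100 UMIs). The 25 highest and 10 lowest were drawn from genes with at least 20 UMIs in the members of each library. Genes with fewer UMIs in members could therefore not be named as lowest. Clusters were made with scanpy 1.11.5 from 2000 variable genes without interferon genes, 30 components, 20 neighbours and Leiden resolution 0.8. Doublets were scored against simulated ones (0.8% per 1000 barcodes called) and kept in the results. Coordinates come from GENCODE vM21 on GRCm38. The Ifit3 and Ifit3b transcripts were compared in place of the planned protein comparison. The intervals were tested on simulated counts with Poisson or binomial error alone. That setting has no differences between cells, so it does not cover genes whose UMIs lie in few cells. Some named genes are not reported here.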

Additional observations from a re-analysis of the deposited data

Results flagged for a closer look

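For 5 of the genes named, a pair of ratios had opposite signs and passed a size limit: at least 2-fold each way for interferon-high cells against the others in the 2 libraries, or at least 2-fold for the larger and 1.5-fold for the smaller for metastatic against control. Other genes with opposite signs stayed under these limits. None of these differences was tested, since each group held 1 library. For Cxcl9 the metastatic to control log2 ratio was 0.81 in interferon-high cells and −1.07 in the other endothelial barcodes, and nearly all of its UMIs in interferon-high cells lay in 1 cell per library. For Ccl21a, the lymphatic chemokine, the same ratios were −6.92 and 0.84, with all 86 control UMIs in 1 lymphatic-like cell.

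The other 3 had ratios of interferon-high cells to others that pointed up in the control and down in the metastatic library. Rbp7, a retinol-binding protein, had 2.64 and −1.63, with 72 of its 91 control UMIs in 1 cell. Pdgfrb, a pericyte and fibroblast receptor, had 2.32 and −1.55, and Gucy1a1, a subunit of the nitric oxide receptor that marks pericytes, had 1.17 and −1.19. Of their control UMIs, 17 of 49 for Pdgfrb and 42 of 137 for Gucy1a1 lay in 1 cell. Without that cell the control ratios were 1.71 and 0.65, the latter under 2-fold. Both genes were among the leading genes of cluster 11, which had fibroblast markers and held 6 control and 2 metastatic interferon-high cells.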

How the results depend on the processing

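No paired analysis was possible because each group held 1 library, and for the same reason no replicate could be left out. Of 298 alternatives for the main values, 249 kept them within their counting interval or kept a count within 1.5 times, and 49 moved them further. For a list median the interval was that of the gene nearest the median. The sign of a main value was reversed in 0 cases, but shares and gene counts cannot change sign, so only ratios and the difference in share could reverse. Effector medians ran from 1.14 to 1.60 in the control and from 1.07 to 1.46 in the metastatic library, and the difference in share from 0.633 to 3.22 percentage points. Leaving out other-type clusters, keeping gCap-like clusters alone and leaving out the top cell of a gene were alternatives chosen after seeing the data.

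The control and metastatic shares were 3.98% and 5.88% with 300 to 5000 genes, 3.77% and 5.78% with Ifit3 and Ifit3b as 1 gene, 8.80% and 12.0% with at least 3 genes and 2.41% and 3.95% (difference 1.53) with at least 5. Thinning gave 1.02% and 1.65% (difference 0.633) at 2000 UMIs and 2.87% and 4.52% (difference 1.65) at 4000, and without doublets the metastatic share was 6.61%. With 1 gene for Ifit3 and Ifit3b, 4.42% and 6.54% of gCap-like cells were interferon-high. With at least 3 genes the shares were 10.1% and 12.8% of gCap-like, 3.68% and 8.39% of aCap-like and 14.1% and 19.8% of vein-like cells, and with at least 5 genes 2.89% and 4.42%, 0.613% and 1.86%, and 4.39% and 6.61%. Without doublets 0.467% and 2.60% of aCap-like cells were interferon-high, and gCap-like cells made up 78.3% of the metastatic interferon-high cells.

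The GTPase medians were 1.45 and 1.35 with at least 3 genes, 1.90 and 1.81 against barcodes with 0 selecting genes, 1.72 in the control without doublets and 1.53 in the control in gCap-like cells. The glucocorticoid median of metastatic to control was −0.76 with at least 3 genes. The 88 genes at least 2-fold higher in both libraries became 245 without a minimum count. The 234 at least 2-fold lower became 404 with Ptprc allowed, 440 with at least 5 genes, 147 without other-type clusters and 76 in gCap-like cells. They became 62 with at least 100 UMIs, 2663 without a minimum and 683 without the top cell. With the other barcodes weighted to the UMI counts per barcode of the interferon-high cells they became 66. Little therefore rests on that count.

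Among single genes 19 values reversed. The metastatic to control ratios in interferon-high cells became −0.22 for Gsn, −0.27 for Inmt and −1.27 for Mfap4 with at least 5 genes, −0.50, −0.76 and −1.03 without other-type clusters, and −0.81, −0.98 and −0.40 in gCap-like cells, where Itga2b was −0.036. Inmt became −0.31 without doublets and −0.20 without its top cell. In gCap-like cells the ratios to the others turned for Adamtsl5 (0.066) and Lyz2 (0.033) in the control, and for Hba-a1 (0.37), Hba-a2 (0.49), Hbb-bs (0.41) and Hbb-bt (0.41) in the metastatic library. Cxcl9 became −0.45 in the metastatic library without its top cell. Apart from what the construction of an alternative shows (fewer cells or genes), the cause was not tested.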

Other observations

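Among genes with at least 100 UMIs over the interferon-high cells of both libraries, those whose metastatic to control log2 ratio was higher in interferon-high cells than in the others by the most were Ppbp (2.06), Cxcl9 (1.88), Ptgs2, the inducible cyclooxygenase (1.60), Gsn (1.42) and Fermt3, a platelet and leukocyte kindlin (1.33). At the other end stood Gucy1a1 (−2.36), Spp1 (−2.28), Cxcl10 (−2.06), Gucy1b1 (−1.82) and Postn (−1.73). Gucy1a1, Spp1 and Postn were among the leading genes of cluster 11, which had fibroblast markers and held 6 control and 2 metastatic interferon-high cells. In 2 of the 5 highest (Cxcl9 and Gsn) and 2 of the 5 lowest (Spp1 and Cxcl10), 1 cell held over 50% of the UMIs in the interferon-high cells of a library. Gsn had 186 of its 276 metastatic UMIs in the cell that also held 39 of 50 Mfap4 and 40 of 51 Inmt UMIs.

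The match was also found in the promoter of Inhbb, 198 bases before its start, as it was in 2.98% of all promoters. Inhbb was lower in metastatic interferon-high cells than in the others, and a link to the match was not tested. Of the reactive capillary genes with RefSeq promoters, 16.7% held the match, which is 1 gene, and of the class I genes 13.3% of promoters did.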
